A study of Mus musculus with 36 samples.

Results

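A set of 10 genes that mark activated microglia was followed through the brain of mice lacking tripeptidyl peptidase 1. The genes were *Trem2*, *Tyrobp*, *Itgax*, *Clec7a*, *Cst7*, *Axl*, *Csf1*, *Spp1*, *Cd9* and *Igf1*, taken by gene name as markers of the TREM2-dependent disease-associated state, and all 10 were listed among the 53274 genes common to the 3 annotations used. RNA-seq libraries came from the forebrain/midbrain (F/M) and the cerebellum (Cb) of *Tpp1*-/- mice and control siblings at 1, 2 and 3 months of age, with 3 libraries in each of 12 groups and 36 in all. The *Tpp1*-/- mice carried a targeted disruption of *Tpp1*, which encodes a lysosomal peptidase and is the gene affected in CLN2 disease. The line was kept by crossing heterozygotes. Controls were labelled wt, except replicate 3 at 1 month in each region, which was *Tpp1*+/-. Replicate 1 at 1 month and replicate 3 at 3 months were female and the other animals were male, in controls and *Tpp1*-/- alike. The question was in which region and at which age these genes first differ between *Tpp1*-/- and control mice.

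Microglia are the resident macrophages of the brain. TREM2 is a surface receptor for lipids and cell debris, and it signals through TYROBP (DAP12), an adaptor with an immunoreceptor tyrosine-based activation motif. In models of amyloid deposition, demyelination and neurodegeneration, microglia lower a homeostatic gene set and raise a disease-associated set, and much of the latter step needs TREM2. Of the 10 genes, *Trem2* and *Tyrobp* encode the receptor and its adaptor and are already made by resting microglia. *Itgax* encodes the CD11c integrin chain, *Clec7a* the β-glucan receptor Dectin-1 and *Cst7* cystatin F, an inhibitor of cysteine cathepsins. *Axl* encodes a receptor tyrosine kinase of the TAM family that helps in clearance of dying cells, and *Cd9* a tetraspanin. *Csf1*, *Spp1* and *Igf1* encode the secreted factors macrophage colony-stimulating factor, osteopontin and insulin-like growth factor 1. *Axl*, *Csf1*, *Spp1*, *Cd9* and *Igf1* are also made by other brain cells.

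Promoter sequence was held for 9 of the 10 genes in RefSeq (GRCm38.p6), with *Tyrobp* the gene without an entry. The 250 bases before the annotated start are shown for the 4 genes with an entry that were upregulated at 3 months, because these genes were called together in Cb. Each is written 5′ to 3′ on the strand of its gene, and capitals mark a match to GAGGAA (the core bound by the macrophage factor PU.1) or TGANTCA (AP-1), searched with CACGTG (E-box) on both strands. The windows are chr17:48346151-48346400 on the plus strand for *Trem2*, chr7:128129300-128129549 on the plus strand for *Itgax*, chr6:129472780-129473029 on the minus strand for *Clec7a* and chr2:150570165-150570414 on the plus strand for *Cst7*.
Trem2: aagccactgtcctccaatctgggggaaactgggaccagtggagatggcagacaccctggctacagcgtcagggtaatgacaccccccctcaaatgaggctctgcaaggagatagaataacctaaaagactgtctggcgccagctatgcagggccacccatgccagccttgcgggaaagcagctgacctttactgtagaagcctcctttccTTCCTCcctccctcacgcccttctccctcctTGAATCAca
Itgax: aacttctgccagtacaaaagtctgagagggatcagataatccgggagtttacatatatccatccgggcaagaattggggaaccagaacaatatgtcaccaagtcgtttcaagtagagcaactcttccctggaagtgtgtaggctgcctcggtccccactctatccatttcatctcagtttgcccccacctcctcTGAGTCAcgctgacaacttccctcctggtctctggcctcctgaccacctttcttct
Clec7a: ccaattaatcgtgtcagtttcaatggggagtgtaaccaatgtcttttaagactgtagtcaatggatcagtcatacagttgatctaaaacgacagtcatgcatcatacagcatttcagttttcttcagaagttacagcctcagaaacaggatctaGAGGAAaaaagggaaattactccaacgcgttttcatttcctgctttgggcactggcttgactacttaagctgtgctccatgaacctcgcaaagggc
Cst7: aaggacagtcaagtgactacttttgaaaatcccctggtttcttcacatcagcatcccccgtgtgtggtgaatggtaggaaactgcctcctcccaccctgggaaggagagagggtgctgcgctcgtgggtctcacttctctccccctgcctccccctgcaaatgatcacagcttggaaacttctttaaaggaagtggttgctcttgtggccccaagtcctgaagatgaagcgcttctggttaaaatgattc
GAGGAA or its reverse complement stood 40 to 35 bases before the start of *Trem2* and 96 to 91 bases before that of *Clec7a*, and TGANTCA 9 to 3 bases before *Trem2* and 56 to 50 bases before *Itgax*. None of the 3 motifs was found in the window of *Cst7*. Across the 9 genes, 5 held GAGGAA (the others being *Axl*, *Spp1* and *Igf1*), 3 held TGANTCA (the other being *Igf1*) and 0 held CACGTG, against 23.3%, 6.75% and 6.02% of 32851 promoter windows of the same length. Some genes have more than 1 annotated start, and by window GAGGAA was held by 6 of 11 and TGANTCA by 3 of 11. The *Clec7a* windows overlap and hold the same GAGGAA site, which is counted for each of them. A match describes the letters of the window and does not show that a factor binds there.

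Library totals ran from 10609896 to 29942380 counts. *Tpp1* itself separated *Tpp1*-/- from control libraries. It lay between 16.1 and 27.8 CPM (counts relative to library size, with TMM scaling) in the 18 *Tpp1*-/- libraries. In the 18 controls it lay between 42.1 and 111 CPM. The 1-month *Tpp1*+/- controls were at 46.6 CPM in F/M and 55.9 CPM in Cb, below the wt libraries of their groups. The 3-month controls, all labelled wt, lay at 42.1 to 43.4 CPM in F/M and 50.8 to 56.0 CPM in Cb. These are near the 1-month *Tpp1*+/- levels, but age and counting run cannot be told apart in levels. At 2 months the libraries differed between genotypes in markers of other structures: 8 of 12 choroid plexus genes in F/M and 7 of 12 in Cb were higher in *Tpp1*-/-, and the interneuron genes *Sst* (2.82 against 13.3 CPM) and *Vip* (0.0875 against 1.83 CPM) and the thalamic gene *Tcf7l2* (4.45 against 35.0 CPM) were lower in *Tpp1*-/- Cb than in control Cb, as were 3 of 6 tested blood cell genes (*S100a8*, *S100a9* and *Ngp*). In *Tpp1*-/- F/M of that age 2 of 13 tested midbrain and thalamus genes (*Slc6a4* and *Tph2*; all 13 with positive log2 fold changes), 2 of 7 brainstem and motor neuron genes (*Slc6a5* and *Slc5a7*) and 2 of 10 cerebellar genes (*Barhl1* and *En2*) were called higher. At 3 months in F/M 1 of the 13 midbrain and thalamus genes had a positive log2 fold change (median -0.32), and 1, *Prkcd*, was called lower (-0.81 ± 0.15). Of 10 oligodendrocyte genes 0 had a positive log2 fold change in either region at 3 months, and 0 were called. At 3 months Cb *Tpp1*-/- replicate 1 stood apart, with the highest summed level of 15 general microglia genes (471 CPM against 283 and 327), of 14 blood cell genes (18.7 CPM against 2.62 and 4.22) and of 12 choroid plexus genes (1747 CPM against 850 and 877). Cb control replicate 3 at 3 months also differed from its group (chi-square per degree of freedom over genes 35.1 and 40.8 against the other controls, which gave 2.18 between them), with the choroid plexus sum at 1554 against 982 and 1029 CPM, and without it 4 members in F/M and 5 in Cb were still called. These are bulk samples, so a change in the number of microglia and a change in RNA per microglial cell cannot be told apart.

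In control mice the members fell into 2 tiers. Per kilobase of annotated exon, *Cd9*, *Spp1*, *Tyrobp* and *Axl* were the most abundant: at 3 months in F/M, *Cd9* was at 18.9 ± 0.957, *Tyrobp* at 14.9 ± 1.73, *Axl* at 11.2 ± 0.196 and *Spp1* at 9.20 ± 1.43 CPM per kb (mean ± SD, n = 3). *Csf1* (4.16 ± 0.192), *Igf1* (1.88 ± 0.0954) and *Trem2* (1.82 ± 0.167 CPM per kb) followed, with the libraries of *Igf1* and *Trem2* overlapping. *Clec7a* (0.168 ± 0.0830), *Cst7* (0.118 ± 0.105) and *Itgax* (0.050 ± 0.037 CPM per kb) lay far lower. The libraries of *Cst7* overlapped those of both other genes, and every *Itgax* library lay below every *Clec7a* library.

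**Figure D1:**
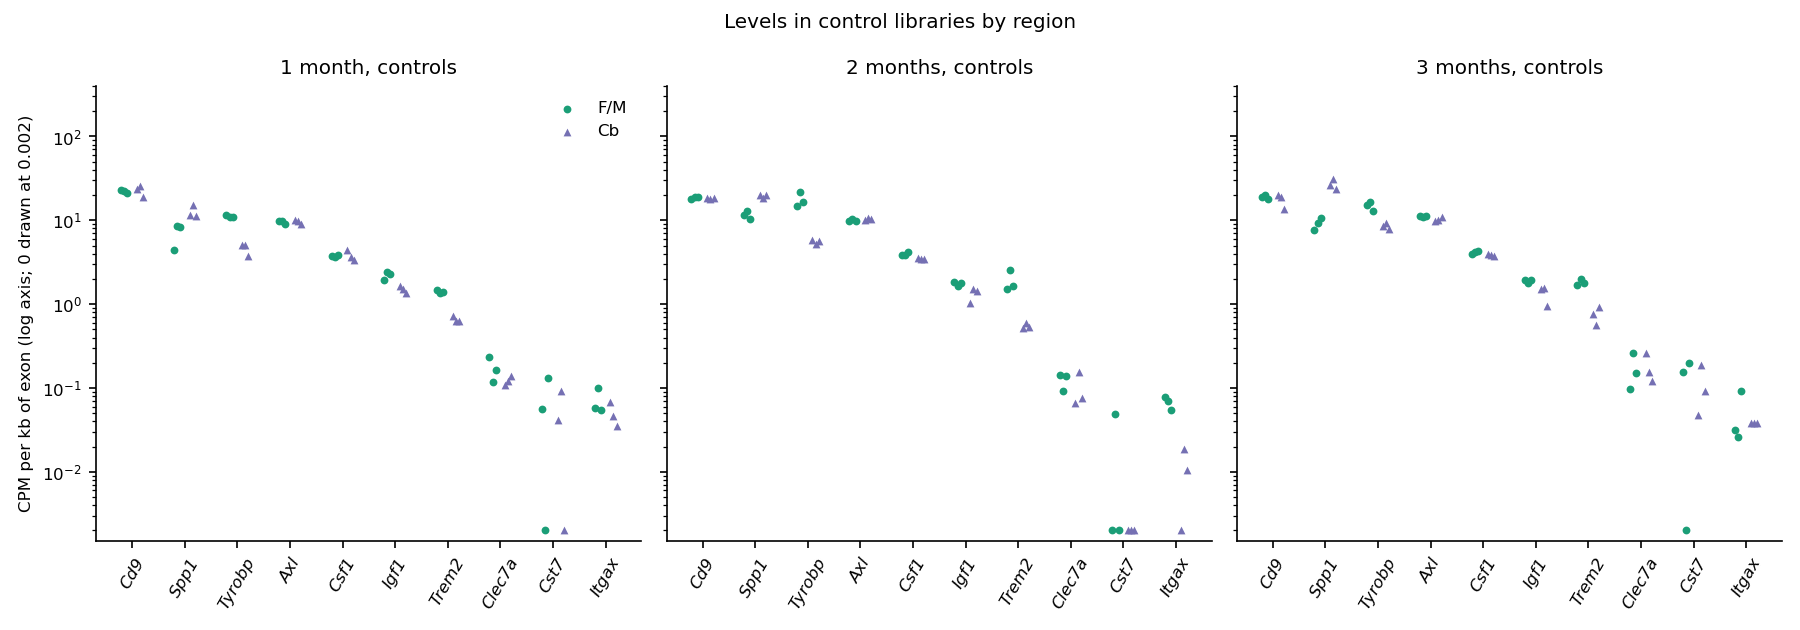
Levels in control libraries in CPM per kb of exon (log axis) at each age, with F/M as circles and Cb as triangles and 1 point per library; values of 0 are drawn at 0.002. *Trem2* and *Tyrobp* sit higher in F/M at every age, *Spp1* sits higher in Cb, and *Clec7a*, *Cst7* and *Itgax* lie far below the other 7 genes.

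The low tier rested on few reads. Over the 18 control libraries *Itgax* had 0 to 11 counts, *Clec7a* 3 to 15 and *Cst7* 0 to 4. A count of 0 allows up to 3 counts per library, and most *Cst7* controls lay at or under that floor, while *Clec7a* and most *Itgax* controls lay at or above it with few reads.

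The regions differed in controls for the same 3 members at each age, all tested with edgeR's quasi-likelihood test and Benjamini-Hochberg adjustment over all genes, with adjusted p under 0.1 and a change of at least 1.5-fold taken as called. *Trem2* was lower in Cb than in F/M by log2 differences of -1.09 ± 0.13 (SE) at 1 month, -1.78 ± 0.18 at 2 months and -1.28 ± 0.21 at 3 months (adjusted p = 2.7e-06, 7.7e-08 and 0.00018). *Tyrobp* was lower in Cb by -1.28 ± 0.16, -1.66 ± 0.15 and -0.80 ± 0.22 (adjusted p = 7.2e-06, 1.0e-08 and 0.0078). With replicate number added to the edgeR fit as a block within region, the 3-month *Tyrobp* value was -0.42 and was not called (adjusted p = 0.25). In that fit the contrast between regions is set at replicate 1. *Spp1* was higher in Cb by 0.83 ± 0.24, 0.76 ± 0.14 and 1.55 ± 0.21 (adjusted p = 0.0083, 0.00015 and 2.4e-05), and without F/M control replicate 1 at 1 month its difference was 0.58, just under the fold minimum. In each of these 9 comparisons the 3 Cb controls and the 3 F/M controls did not overlap. The regions differ widely across the genome, with 36.9%, 39.3% and 37.7% of tested genes called at 1, 2 and 3 months, beside 3 of the 9, 7 and 10 members tested at those ages, so the members' share is near the background. *Igf1* was also lower in Cb, by -0.56, -0.40 and -0.50 (adjusted p = 0.0048, 0.027 and 0.016), each under the 1.5-fold minimum, as was *Csf1* at 2 months (-0.19, adjusted p = 0.035, groups apart). *Axl* and *Cd9* gave adjusted p from 0.22 to 0.99.

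The Cb controls of *Spp1* were at 18.8, 25.2 and 18.4 CPM at 1 month, 33.0, 30.4 and 33.4 at 2 months and 43.7, 50.7 and 38.9 CPM at 3 months, and the summed level of 12 brainstem and motor neuron genes in Cb controls was 39.7 to 47.2, 42.9 to 48.0 and 49.9 to 64.0 CPM. The part of those cells in the *Spp1* level was not tested.

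At 1 month 0 members were called in F/M and 0 in Cb, where 0.0112% of 17916 tested genes were called in each region by edgeR. DESeq2 and limma-voom also called 0 members. At an unadjusted p under 0.05 in edgeR stood *Trem2* and *Tyrobp* in F/M (1.89% of all genes) and *Tyrobp* and *Clec7a* in Cb (7.66%). *Cst7*, at 0 to 3 counts per library, did not pass the low-count filter, leaving 9 members tested. The receptor and its adaptor were higher in every *Tpp1*-/- F/M library than in every control, as were 8.31% of all tested genes. The mean log2 CPM of the 15 general microglia genes was also apart in F/M (3.55 to 3.67 against 3.39 to 3.53). That of 16 homeostatic microglia genes overlapped (5.18 to 5.38 against 5.14 to 5.29). *Trem2* was at 7.27, 6.79 and 6.998 CPM in F/M controls and at 10.7, 10.6 and 10.4 CPM in *Tpp1*-/- (log2 fold change 0.59 ± 0.12, edgeR unadjusted p = 0.00016, adjusted p = 0.71). *Tyrobp* was at 7.77, 7.27 and 7.26 against 9.997, 11.7 and 11.0 CPM (0.55 ± 0.15, edgeR unadjusted p = 0.0022, adjusted p = 1). Without the *Tpp1*+/- F/M control, the 2 fold changes were 0.59 and 0.54.

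In Cb at 1 month *Tyrobp* was at 3.36, 3.38 and 2.48 CPM in controls and 5.59, 4.05 and 4.52 CPM in *Tpp1*-/- (0.64 ± 0.17, adjusted p = 0.63). The lowest of these controls was the *Tpp1*+/- library, and the fold change without it was 0.50. Without *Tpp1*-/- replicate 3 *Tyrobp* was called (0.69, adjusted p = 0.060), and leaving out 1 library at a time gave 0.48 to 0.73. *Tpp1*-/- replicate 1, the highest for *Tyrobp*, lay far from its group (chi-square per degree of freedom over genes 43.7 and 45.5, against 17.4 between the other pair). It was kept in the fit that called *Tyrobp*. *Clec7a* gave 7, 7 and 11 counts in controls against 17, 7 and 18, a ratio of 1.92 (95% exact conditional interval 1.14 to 3.29, counting error only). *Trem2* was at 3.57, 3.15 and 3.15 against 3.60, 3.67 and 3.93 CPM. These 3 genes did not overlap in CPM between the groups, nor did *Trem2* and *Tyrobp* in F/M; across all tested genes 8.31% in F/M and 4.26% in Cb had every *Tpp1*-/- library above every control. *Clec7a* passed the filter at 1 month mainly through *Tpp1*-/- libraries (4 of them and 1 control above the threshold, 3 needed), so its place among the tested genes depended on the group where it was higher. The other members of either region overlapped. The Cb and F/M effects did not pass as different for any member at 1 month (0 members in edgeR, DESeq2 or limma-voom, with 0% of genes passing in edgeR). *Trem2* alone had an unadjusted p under 0.05 (Cb minus F/M -0.41 ± 0.18, unadjusted p = 0.035 and adjusted p = 1 in edgeR), as did 1.94% of all genes.

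**Figure D2:**
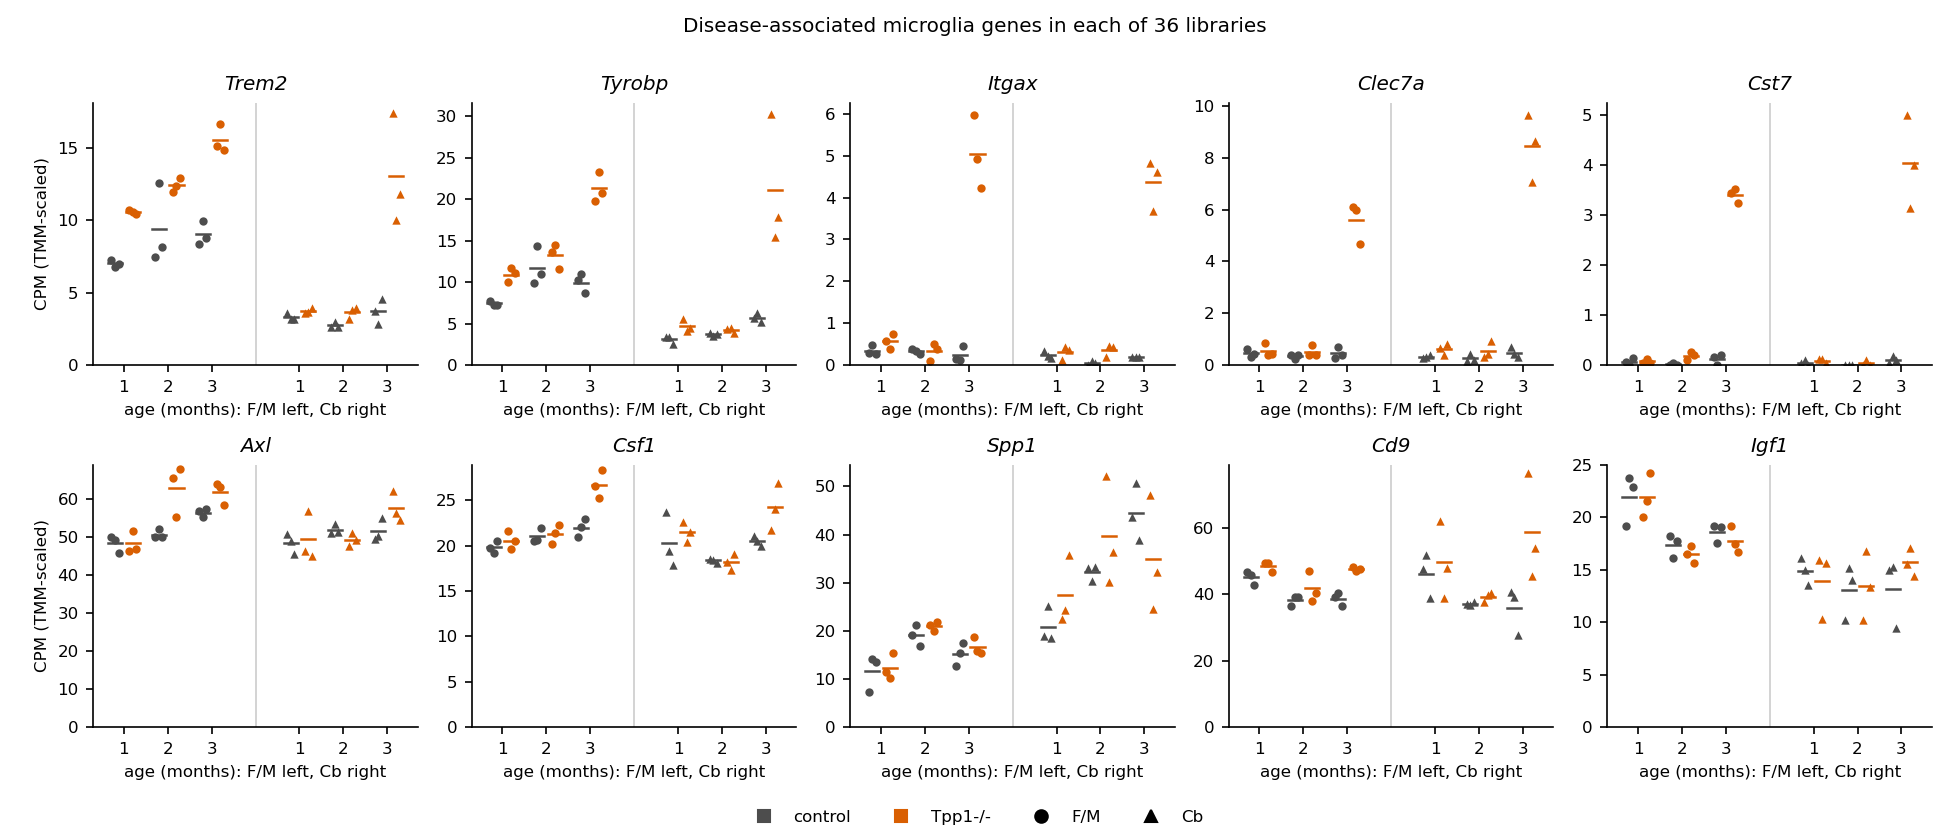
CPM of each gene in each of the 36 libraries, by age, with F/M circles on the left and Cb triangles on the right of each panel, controls in grey, *Tpp1*-/- in orange and bars at the group means. *Itgax*, *Clec7a* and *Cst7* lie at or below 0.937 CPM in every library except the 3-month *Tpp1*-/- libraries, where they lie between 3.13 and 9.65 CPM.

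At 2 months 0 members were again called in either region, against 0.737% of 17229 tested genes in F/M and 2.05% in Cb by edgeR. DESeq2 and limma-voom also called 0 members. At an unadjusted p under 0.05 in edgeR stood *Trem2* and *Axl* in F/M (16.9% of all genes) and *Spp1* in Cb (9.67%). *Itgax*, *Clec7a* and *Cst7* did not pass the filter, so 7 members were tested. *Axl* was higher in *Tpp1*-/- F/M, at 65.6, 55.3 and 67.9 CPM against 50.0, 52.1 and 50.0 CPM in controls. Its log2 fold change of 0.31 ± 0.07 had an adjusted p of 0.047 (edgeR) but lay under the 1.5-fold minimum, and 3.17% of all genes passed at that adjusted p with no fold minimum. In Cb *Axl* was at 51.0, 53.5 and 51.5 CPM in controls and 47.8, 51.0 and 49.3 CPM in *Tpp1*-/- (-0.08 ± 0.07, adjusted p = 0.86).

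The effect on *Axl* differed between the regions at 2 months, with the Cb effect below the F/M effect by a log2 difference of -0.39 ± 0.10 (adjusted p = 0.060, interaction test in edgeR), where 2.97% of all genes passed. No other tested member passed (adjusted p from 0.83 to 1), and the pass was lost when any of 7 of the 12 libraries was left out (adjusted p up to 0.23). It was also lost in edgeR with the replicate block (-0.38, adjusted p = 0.105). *Axl* is also made by astrocytes and endothelium. In the same F/M libraries the sum of 10 astrocyte genes was 6178 to 7642 CPM in *Tpp1*-/- against 4911 to 5863 CPM in controls, that of 10 endothelial genes 261 to 349 against 257 to 270 CPM (9 of 10 with positive log2 fold changes, 0 called), and 8 of 12 choroid plexus genes were higher, as were the midbrain, brainstem and cerebellar genes named above. The part of those cells in the *Axl* difference was not tested.

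*Trem2* at 2 months was at 7.43, 12.6 and 8.12 CPM in F/M controls and 11.96, 12.4 and 12.9 CPM in *Tpp1*-/- (0.40 ± 0.15, adjusted p = 0.20). Control replicate 2 reached into the *Tpp1*-/- range, and without it *Trem2* was called (0.67, adjusted p = 0.013). In Cb *Trem2* was at 2.59, 2.94 and 2.65 against 3.20, 3.82 and 3.94 CPM (0.40 ± 0.20, adjusted p = 0.57). *Tyrobp* gave 0.18 ± 0.13 in F/M and 0.19 ± 0.16 in Cb, with overlapping libraries in both.

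Among the low genes at 2 months, *Itgax* in Cb had 0, 2 and 1 counts in controls and 5, 10 and 7 in *Tpp1*-/-. Its ratio, scaled by library size, was 6.66 with a 95% exact interval of 2.00 to 34.8. In F/M the same gene gave 8, 7 and 5 counts against 2, 8 and 4, a ratio of 0.922 (0.431 to 1.92). *Cst7* had 0, 1 and 0 counts in F/M controls and 2, 4 and 2 in *Tpp1*-/-, a ratio of 10.5 (1.41 to 467), while in Cb it had 0 counts in all 3 controls and 0, 2 and 0 in *Tpp1*-/-, at the floor in both groups. *Clec7a* gave ratios of 1.58 (0.836 to 3.02) in F/M and 1.87 (1.00 to 3.65) in Cb. The Cb controls at 2 months were those that held more *Sst*, *Vip* and *Tcf7l2*.

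At 3 months 4 members were upregulated in F/M and 5 in Cb, and 0 were lower. Of 17224 tested genes 0.412% were called higher in F/M and 0.673% in Cb, and 0.0523% and 0.186% were called lower. All 10 members passed the filter. *Itgax* and *Cst7* passed it through the *Tpp1*-/- libraries alone and *Clec7a* with 2 controls above the threshold of 0.480 CPM where 3 libraries were needed, so a difference was built into their being tested, and the count of members called is a description.

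*Itgax*, *Clec7a* and *Cst7* went from near the detection limit to clear expression. *Itgax* had 3, 2 and 9 counts in F/M controls and 123, 91 and 82 in *Tpp1*-/- (0.153, 0.124 and 0.443 against 5.96, 4.92 and 4.22 CPM; log2 fold change 4.31 ± 0.32, adjusted p = 1.6e-05). In Cb it had 4, 4 and 4 counts against 121, 87 and 98 (4.53 ± 0.33, adjusted p = 5.7e-06). The lowest *Tpp1*-/- library was far above the highest control in either region. By summed counts the ratio was 20.2 in F/M (95% exact interval 11.9 to 37.4) and 23.8 in Cb (13.4 to 46.6).

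*Clec7a* had 5, 11 and 8 counts in F/M controls and 126, 111 and 91 in *Tpp1*-/- (3.68 ± 0.30, adjusted p = 3.3e-05). In Cb it had 15, 9 and 7 counts against 242, 167 and 184 (4.14 ± 0.28, adjusted p = 2.8e-06). Its ratios by summed counts were 13.1 (8.63 to 20.7) and 17.8 (12.4 to 26.5). *Clec7a* is typed as a polymorphic pseudogene in the annotation, and its reads were counted like those of any gene.

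*Cst7* had 3, 0 and 4 counts in F/M controls and 71, 65 and 63 in *Tpp1*-/- (4.71 ± 0.43, adjusted p = 8.6e-05). In Cb it had 1, 4 and 2 counts against 125, 74 and 85 (5.16 ± 0.41, adjusted p = 1.6e-05). The ratios were 27.2 (12.95 to 68.5) and 37.9 (18.1 to 95.004). These 3 genes had the largest fold changes among the 10 in each region, and the exact fold depends on a handful of control reads.

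*Trem2* and *Tyrobp* started from a measurable base. In Cb *Trem2* went from 3.76, 2.80 and 4.55 CPM to 17.4, 9.99 and 11.8 CPM (1.82 ± 0.21, adjusted p = 0.00038). *Tyrobp* went from 5.66, 6.24 and 5.24 CPM to 30.2, 15.4 and 17.8 CPM (1.89 ± 0.21, adjusted p = 0.00037). *Tpp1*-/- replicate 1, the library that stood apart, was the highest for both genes, and without it the fold changes were 1.55 ± 0.16 and 1.54 ± 0.13, each still called.

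In F/M *Tyrobp* went from 10.2, 10.9 and 8.67 CPM to 19.8, 23.3 and 20.8 CPM (1.10 ± 0.21, adjusted p = 0.039). The groups lay apart, but the call was lost when any 1 of the 6 F/M libraries was left out, with adjusted p from 0.10 to 0.19. *Trem2* was at 8.36, 9.95 and 8.77 CPM in controls and 15.1, 16.7 and 14.9 CPM in *Tpp1*-/- (0.79 ± 0.20, adjusted p = 0.18), also without overlap. It was called by DESeq2 (adjusted p = 0.029) and in the fit of the 6 F/M libraries alone (adjusted p = 0.00011), and in the 12-library fit without Cb *Tpp1*-/- replicate 1 (adjusted p = 0.013) or replicate 2 (adjusted p = 0.099). Among *Tpp1*-/- libraries, Cb replicate 1 lay above the F/M libraries for both genes and the other 2 Cb libraries lay below them.

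**Figure D3:**
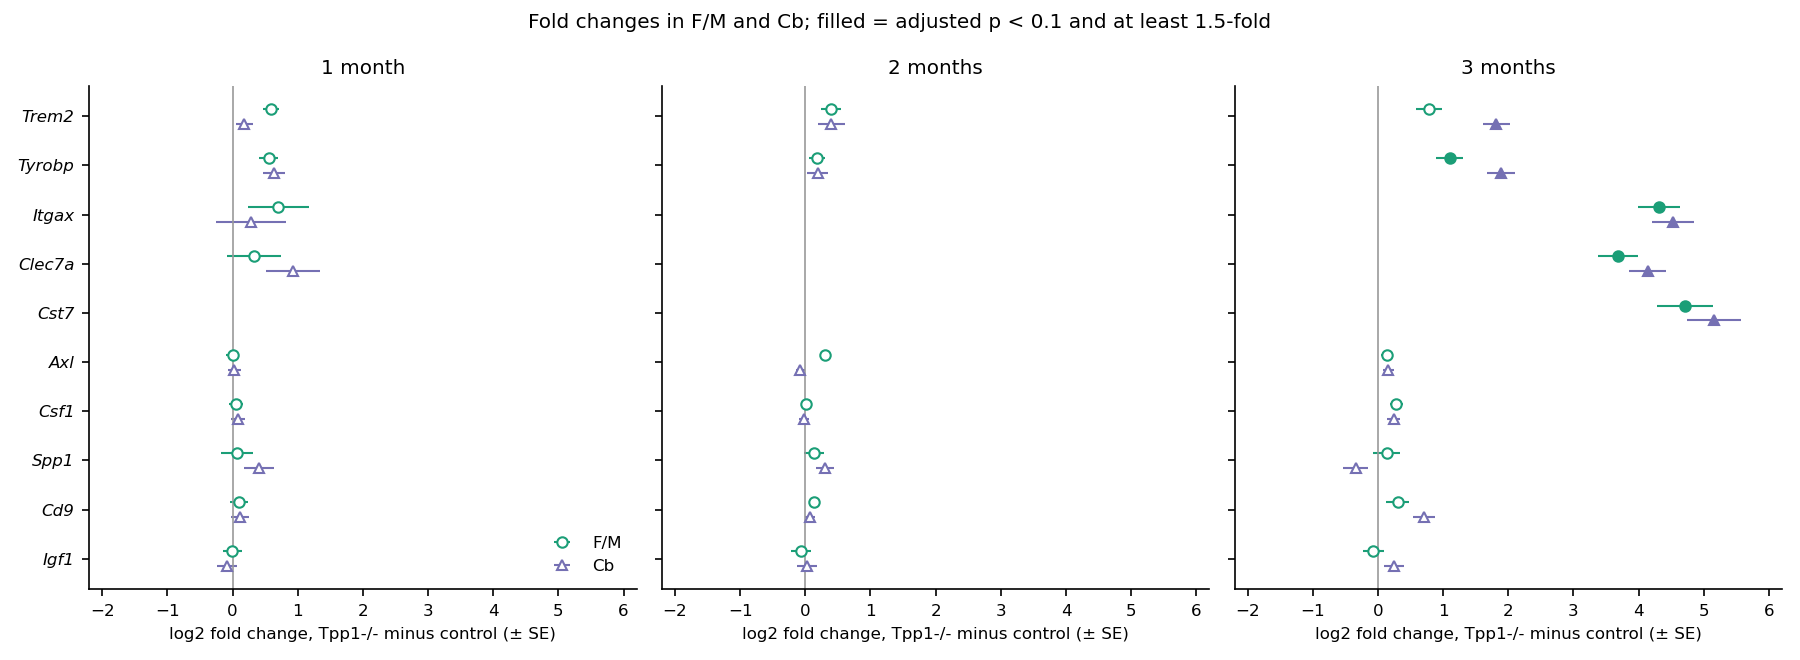
Log2 fold change of *Tpp1*-/- over control with its standard error for each gene at 1, 2 and 3 months, with F/M as circles and Cb as triangles; filled symbols passed adjusted p under 0.1 and 1.5-fold, and genes that did not pass the low-count filter have no symbol. Filled symbols occur at 3 months alone, for 4 genes in F/M and 5 in Cb.

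The other 5 members were not called at 3 months. *Cd9* in Cb was at 40.8, 39.2 and 27.7 CPM in controls and 76.5, 45.5 and 53.8 CPM in *Tpp1*-/- (0.71 ± 0.17, adjusted p = 0.11). The groups did not overlap, and without *Tpp1*-/- replicate 1 the fold change was 0.47 ± 0.13. It was called by DESeq2 (adjusted p = 0.011) and in edgeR with RLE scaling (adjusted p = 0.096), the sex label as covariate (adjusted p = 0.083), no low-count filter (adjusted p = 6.5e-06) or without *Tpp1*-/- replicate 2 (0.86, adjusted p = 0.027). Without control replicate 3, its lowest library, it was 0.55 (adjusted p = 0.23). In F/M *Cd9* was at 39.1, 40.4 and 36.6 against 48.2, 47.1 and 47.5 CPM (0.30 ± 0.17, adjusted p = 0.96).

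*Csf1* was at 20.9, 22.1 and 22.9 CPM in F/M controls and 26.5, 25.3 and 28.3 CPM in *Tpp1*-/- (0.28 ± 0.10, adjusted p = 0.56), and at 21.0, 20.5 and 19.95 against 21.7, 24.1 and 26.9 CPM in Cb (0.24 ± 0.10, adjusted p = 0.66). Neither pair of groups overlapped and neither passed the test. *Axl* gave 0.13 ± 0.09 in F/M and 0.16 ± 0.08 in Cb, with groups that overlapped in Cb. *Igf1* gave -0.07 ± 0.15 and 0.25 ± 0.15 with overlap in both regions.

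*Spp1*, often listed among the strongest genes of the activated state, was at 12.7, 15.3 and 17.4 CPM in F/M controls and 18.6, 15.8 and 15.4 CPM in *Tpp1*-/- (0.13 ± 0.21, adjusted p = 1). In Cb it was at 43.7, 50.7 and 38.9 CPM in controls and 48.3, 24.5 and 32.2 CPM in *Tpp1*-/- (-0.34 ± 0.20, adjusted p = 0.87). Without *Tpp1*-/- replicate 1 the Cb value was -0.65 ± 0.15 and was called as lower (adjusted p = 0.052). The summed level of the brainstem and motor neuron genes was 49.9 to 64.0 CPM in those Cb controls and 25.9 to 37.8 CPM in *Tpp1*-/-, and its part in the *Spp1* difference was not tested. In all, *Trem2*, *Tyrobp*, *Itgax*, *Clec7a*, *Cst7*, *Cd9* and *Csf1* had every *Tpp1*-/- library above every control in both regions and *Axl* in F/M alone; across all tested genes 11.8% did so in F/M and 4.46% in Cb.

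The F/M and Cb effects at 3 months differed by an unadjusted p under 0.05 for *Trem2* (Cb minus F/M 1.03 ± 0.29, unadjusted p = 0.0030 and adjusted p = 0.93 in edgeR) and *Tyrobp* (0.79 ± 0.30, unadjusted p = 0.019 and adjusted p = 1 in edgeR). At that unadjusted threshold stood 3.51% of all genes. After adjustment 0 members passed in edgeR, DESeq2 or limma-voom, where 0.00581% of all genes did in edgeR. *Trem2* passed when no low-count filter was used (adjusted p = 0.014). For *Itgax*, *Clec7a* and *Cst7* the differences were 0.22 ± 0.55, 0.46 ± 0.47 and 0.45 ± 0.82, with errors too wide to show that the regions were alike.

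Change with age was tested in a model of all 36 libraries, as the difference between the *Tpp1*-/- effects at 2 ages. From 2 to 3 months in F/M the effect grew for *Itgax* (by 4.41 ± 0.69, adjusted p = 0.0019) and *Clec7a* (3.04 ± 0.62, adjusted p = 0.023), where 0.393% of 18322 genes passed and 0.158% passed with a larger effect at the later age. At the low-count thresholds within each age, *Itgax* had 1, 0 and 0 controls above at 1, 2 and 3 months and *Clec7a* 1, 0 and 2, with 3 libraries needed. *Itgax* was thus kept mainly through *Tpp1*-/- libraries and *Clec7a* in part, so their passes here and below are a description. The *Tyrobp* effect was 0.93 ± 0.24 larger and did not pass (adjusted p = 0.13), but passed in DESeq2 (adjusted p = 0.059), with no low-count filter (adjusted p = 0.0020) and without 3-month Cb *Tpp1*-/- replicate 1 (adjusted p = 0.013) or replicate 2 (adjusted p = 0.066) or 1-month Cb *Tpp1*-/- replicate 1 (adjusted p = 0.089). *Clec7a* in F/M was lost without 2-month F/M control replicate 1 or 3 or *Tpp1*-/- replicate 1 (adjusted p from 0.10 to 0.12). In Cb it grew for *Tyrobp* (1.70 ± 0.27, adjusted p = 0.00017), *Trem2* (1.41 ± 0.27, adjusted p = 0.0019) and *Clec7a* (3.20 ± 0.63, adjusted p = 0.0028), where 1.44% of genes passed and 1.3% with a larger effect. *Clec7a* in Cb was lost without 2-month Cb control replicate 2 (adjusted p = 0.18).

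From 1 to 3 months the F/M effect grew for *Clec7a* (3.35 ± 0.56, adjusted p = 0.0049) and *Itgax* (3.62 ± 0.63, adjusted p = 0.0063), against 0.153% of genes (0.147% with a larger effect), and *Itgax* was lost without 1-month F/M control replicate 2 (adjusted p = 0.12). The Cb effect grew for *Trem2* (1.64 ± 0.26, adjusted p = 0.00069), *Itgax* (4.25 ± 0.70, adjusted p = 0.0014), *Clec7a* (3.22 ± 0.55, adjusted p = 0.0025) and *Tyrobp* (1.25 ± 0.27, adjusted p = 0.026), against 0.458% of genes (0.278% with a larger effect). *Tyrobp* did not pass in limma-voom (1.18, adjusted p = 0.14). In Cb *Spp1* passed as a falling effect without 3-month *Tpp1*-/- replicate 1 (-1.06, adjusted p = 0.040), and *Cd9* as a growing one without 1-month *Tpp1*-/- replicate 1 (0.80, adjusted p = 0.065) or, from 2 months, without 3-month *Tpp1*-/- replicate 2 (0.78, adjusted p = 0.048). With no low-count filter in edgeR and all libraries kept, both also passed. *Spp1* gave -0.74 from 1 month (adjusted p = 0.0038) and -0.65 from 2 months (adjusted p = 0.012). *Cd9* gave 0.60 from 1 month (adjusted p = 0.026) and 0.63 from 2 months (adjusted p = 0.0085). From 1 to 2 months 0 members passed in either region in edgeR, DESeq2 or limma-voom, against 0.0218% of genes in F/M and 1.28% in Cb in edgeR. At an unadjusted p under 0.05 in edgeR stood 1 of 10 members in F/M, *Axl* (0.31 ± 0.11), and 1 in Cb, *Itgax* (2.35 ± 0.92), near the shares of all genes (8.81% and 8.85%). The 2-to-3-month and 1-to-3-month contrasts share the 3-month libraries. Each age was also counted against its own annotation release, so age and counting run cannot be told apart in levels, while each effect compares libraries of 1 age. *Cst7*, with 0 to 4 counts per library at 1 and 2 months, had standard errors from 1.31 to 8.65 in edgeR and did not pass there. Its F/M change from 1 to 3 months (4.50 ± 1.31, adjusted p = 0.39 in edgeR) passed in DESeq2 (4.53, adjusted p = 0.067) and limma-voom (4.49, adjusted p = 0.097). It lay above 0.252 CPM in the 3-month *Tpp1*-/- libraries alone and so entered that model through them. These passes are a description, as are those of *Itgax* and, in part, *Clec7a*.

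To see the members against other microglial genes, each was set against the mean log2 CPM of 16 homeostatic microglia genes, which include *P2ry12* and *Tmem119*. That mean was higher by 0.09 in F/M at 3 months (from 5.35 ± 0.05 to 5.44 ± 0.08) and by 0.41 in Cb (from 3.65 ± 0.16 to 4.06 ± 0.09). Relative to it, *Cst7* was higher by 4.10 in F/M and 3.97 in Cb, *Itgax* by 3.95 and 3.58, *Clec7a* by 3.38 and 3.53, *Tyrobp* by 1.01 and 1.40 and *Trem2* by 0.69 and 1.37. All 3 *Tpp1*-/- libraries lay above all 3 controls in each case. The smallest two-sided exact permutation p for 3 against 3 is 0.1, which these values had, and 0.26 after adjustment over the 60 comparisons made.

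*Cd9* was higher relative to the list in F/M (by 0.21, groups apart) and overlapped in Cb, but was lower in both regions with the 15 general microglia genes as reference. *Axl* (-0.25) and *Spp1* (-0.80) were lower relative to it in Cb, with every *Tpp1*-/- library under every control and the same exact p of 0.1, as had 52.6% of all tested genes on this measure. In all 6 members in F/M and 5 in Cb lay wholly above controls, against 3.12% and 0.726% of all tested genes measured the same way. Since *Itgax* and *Cst7* were among the tested genes through the *Tpp1*-/- libraries alone, and *Clec7a* in part, these counts too are a description. At 1 month *Trem2* and *Tyrobp* did so in F/M and *Tyrobp* in Cb (background 1.1% and 1.17%). At 2 months *Cst7* and *Axl* did so in F/M and *Trem2*, *Itgax*, *Clec7a*, *Cst7* and *Cd9* in Cb (4.9% and 24.2% of tested genes). *Itgax*, *Clec7a* and *Cst7* did not pass the filter at that age and those shares do not cover them, *Cst7* in Cb was at the floor in both groups, and *Clec7a* in Cb overlapped with a prior count of 0.5. Of the 7 members tested, 2 in Cb is near the background. With the 15 general microglia genes as the reference, whose mean was higher by 0.56 in F/M and 1.17 in Cb, *Itgax*, *Clec7a* and *Cst7* were higher in both regions by 2.78 to 3.63 and *Trem2* and *Tyrobp* by 0.22 to 0.64, again without overlap. Against that list *Axl*, *Csf1*, *Cd9* and *Igf1* lay wholly below controls in both regions and *Spp1* in Cb, by -0.26 to -1.56, so that the direction of *Cd9* depended on the reference (-0.26 in F/M and -0.48 in Cb). Of all tested genes 80.5% in F/M and 93.3% in Cb lay wholly below controls on this measure, and 0.598% and 0.203% wholly above, so lying below does not set these members apart.

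**Figure D4:**
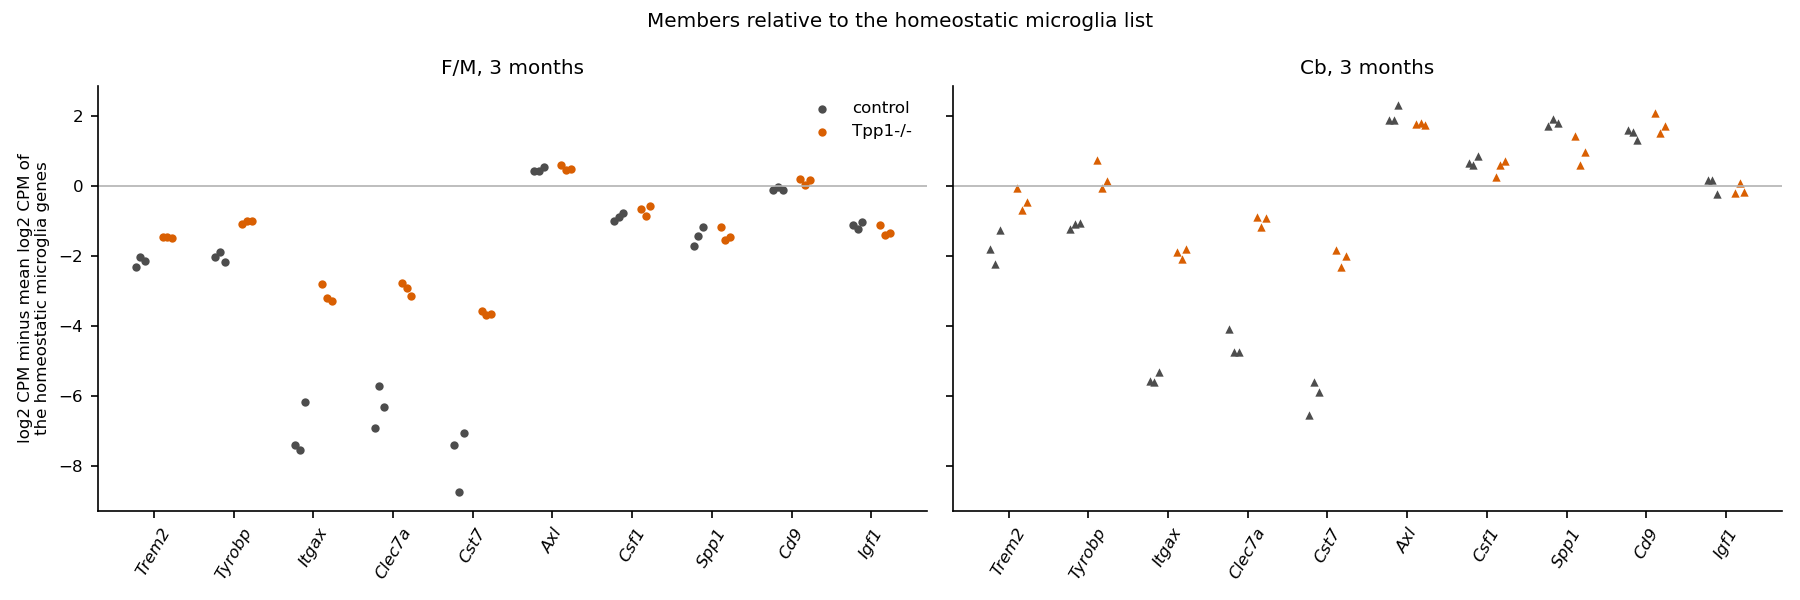
Log2 CPM of each gene minus the mean log2 CPM of the 16 homeostatic microglia genes in each 3-month library, F/M on the left and Cb on the right, controls in grey and *Tpp1*-/- in orange. *Itgax*, *Clec7a* and *Cst7* show the widest gaps, from 3.38 to 4.10 in the group means, while *Axl*, *Csf1*, *Spp1* and *Igf1* overlap the controls or lie below them.

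Other genes of the activated state were read from a list of 30. At 3 months 11 were called higher in F/M and 13 in Cb and 0 lower, with a median log2 fold change of 0.48 in F/M and 0.66 in Cb beside medians of -0.0026 and -0.0027 over all tested genes. Of all tested genes 0.412% in F/M and 0.673% in Cb were called higher. The list was written with earlier results of these data known, so its counts are a description. The chemokine *Ccl3* was at 0.884 ± 0.112 against 0.0657 ± 0.114 CPM in F/M and 1.53 ± 0.614 against 0.0765 ± 0.0698 CPM in Cb. The surface glycoprotein gene *Cd52* changed by 2.18 ± 0.26 (adjusted p = 0.0014) in F/M and 3.35 ± 0.27 (adjusted p = 1.7e-05) in Cb, and the lysozyme gene *Lyz2* by 1.45 ± 0.18 in F/M (adjusted p = 0.0014). *Lpl*, the lipoprotein lipase gene, was called in Cb (2.16 ± 0.19, adjusted p = 3.1e-05). At 1 and 2 months this list gave 0 called higher in each comparison and 1 lower, *Timp2* in 2-month Cb (-0.65 ± 0.08). There 2.05% of all tested genes were called and the controls held more *Sst*, *Vip* and *Tcf7l2*.

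**Figure D5:**
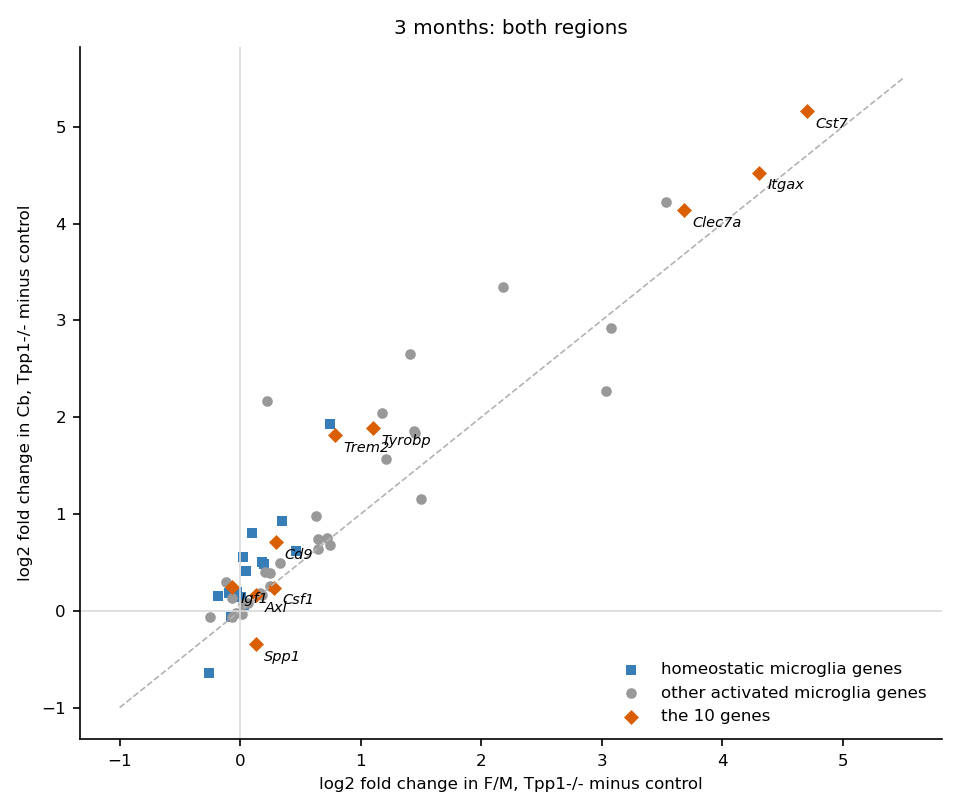
Log2 fold change in Cb against that in F/M at 3 months for the 10 genes (diamonds), 30 other activated microglia genes (circles) and 16 homeostatic microglia genes (squares), with equality as a dashed line. *Itgax*, *Clec7a* and *Cst7* lie at the top right, *Trem2* and *Tyrobp* lie above the line, and *Axl*, *Csf1*, *Spp1* and *Igf1* lie near the origin with most homeostatic genes.

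Of 19 genes for signalling below TREM2, 18 were tested. At 3 months 0 were called in F/M (0.412% of all tested genes called higher) and 3 in Cb (0.673%), all higher. These were the kinase gene *Btk* (1.45 ± 0.27, adjusted p = 0.019), the phosphatase genes *Ptpn6* (0.95 ± 0.19, adjusted p = 0.033) and *Inpp5d* (0.73 ± 0.12, adjusted p = 0.0073). The last 2 encode SHP-1 and SHIP-1, which restrain such signalling. At 1 and 2 months 0 of the 18 were called.

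Ligands, receptors and targets of the members made up a list of 24. *Itgb2*, the β chain that pairs with the *Itgax* product, was called in F/M (0.87 ± 0.17, adjusted p = 0.048) and Cb (1.28 ± 0.18, adjusted p = 0.0028) at 3 months. In Cb the cathepsin genes *Ctsc* (0.87 ± 0.12, adjusted p = 0.0028) and *Ctsh* (0.75 ± 0.16, adjusted p = 0.051), whose products cystatin F can inhibit, and *Cd44* (0.73 ± 0.11, adjusted p = 0.0065), an osteopontin receptor, were also called. That made 1 of 24 in F/M and 4 of 24 in Cb, beside 0.412% and 0.673% of all tested genes called higher. At 2 months *Il34*, the other ligand of the *Csf1* receptor, was lower in Cb (-0.62 ± 0.11, adjusted p = 0.0017) and no other gene of the list was called. Of all tested genes 2.05% were called in that comparison. The Cb controls of that age held more *Sst*, *Vip* and *Tcf7l2*, and the part of this in the *Il34* value was not tested.

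The homeostatic list gave 1 called gene of 16 in F/M, *Fcrls* (0.74 ± 0.13, adjusted p = 0.023), and 2 in Cb, among them *Fcrls* (1.93 ± 0.14, adjusted p = 5.7e-06), all higher and none lower. The general microglia list gave 4 of 15 in F/M and 12 of 15 in Cb, with *C1qa* at 14.2 ± 2.99 CPM in control Cb and 55.3 ± 21.6 CPM in *Tpp1*-/- Cb. Its sum was 300 to 330 CPM in F/M controls and 458 to 493 CPM in *Tpp1*-/-, and 150 to 161 against 283 to 471 CPM in Cb. With Cb *Tpp1*-/- replicate 1 left out, the general list gave 9 in F/M and 12 in Cb, the homeostatic list 1 and 4, and the 30-gene list 13 and 11, while the share of all genes called was 0.883% for F/M (0.464% with it) and 1.17% for Cb (0.859% with it). With Cb control replicate 3 left out instead, they gave 4 and 12, 1 and 2, and 10 and 14, with 0.558% and 1.13% of all genes called.

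Markers of cells that could bring in the same genes were read beside these values. Of 10 border macrophage genes and 14 blood cell genes, 0 were called at 3 months in either region, with 9 and 5 of them tested. In Cb 9 of the 9 border macrophage genes had positive log2 fold changes (median 0.49) and 4 of the 5 blood cell genes (median 0.50), and in F/M 6 of 9 (median 0.19) and 2 of 5 (median -0.04). Their part in the members' values was not tested. The border macrophage genes summed to 29.9 to 30.9 CPM in F/M controls and 30.6 to 37.7 CPM in *Tpp1*-/-, and to 17.5 to 23.6 against 22.7 to 26.5 CPM in Cb. The blood cell genes summed to 3.84 to 5.78 against 4.58 to 5.19 CPM in F/M and to 6.10 to 6.83 against 2.62 to 18.7 CPM in Cb, where the highest value is again replicate 1. No marker of either list was at 0 in all libraries of a 3-month group. Of 10 astrocyte genes 1 was called, *Gfap*, at 457 ± 36.4 against 172 ± 7.15 CPM in F/M and 608 ± 108 against 179 ± 9.23 CPM in Cb.

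Likeness was described by Pearson's r over the 36 libraries of log2 CPM minus the mean of the 3 controls that match a library's age and region, among 18322 genes; the libraries share their control means, and the large 3-month values weigh most. *Trem2* was most like *Adgre1* (r = 0.91), *Cd52* (0.90) and *Fcrls* (0.90), and *Tyrobp* most like *C1qb*, *Ctsd* and *C1qa* (each 0.96). *Itgax* and *Clec7a* were both most like *AU020206* (0.89 and 0.94) and *Gfap* (0.89 and 0.94), with *Ly9* and *Mpeg1* next, and *Cst7* most like *Gfap* (0.95), *Lyz2* (0.92) and *C4b* (0.91). *Cd9* was closely followed by *C1qa* (0.91) and *C1qc* (0.89). *Csf1* was less closely followed, by *AU020206* (0.77), *Csf3r* (0.76) and *Apobec1* (0.74), and *Axl* by *Chil1* (0.75), *Rac2* (0.73) and *Dock8* (0.70).

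*Spp1* was most like *Nefh* (0.75), a neurofilament gene, *Cdr2* (0.75) and *Ndrg1* (0.74), and its r with the other members ran from -0.22 to -0.10. *Igf1* was most like *Kbtbd7*, *Zxdb* and *Dr1* (0.81, 0.81 and 0.80), and its r with the other members ran from -0.18 with *Spp1* to 0.49 with *Cd9*. Among the members *Itgax* and *Clec7a* were the most alike pair (0.91), followed by *Clec7a* and *Cst7* (0.90) and *Trem2* and *Tyrobp* (0.90).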

How the data were processed

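Poly(A) RNA of F/M and Cb was sequenced as stranded libraries. The deposited files hold raw counts per gene: the authors aligned reads to mm10 with STAR 2.5.2b and counted them with featureCounts, per the file headers version 1.6.3 with GENCODE M21 at 1 month, 1.6.2 with M16 at 2 months and 1.6.2 with M18 at 3 months. The strand setting in the headers was 1, 2 and 1, multi-mapping reads were allowed in fractions, and all values were whole. Reads shared with near-identical copies cannot be resolved. List genes were tied to the files by Ensembl ID.

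Within each age all 12 libraries entered 1 fit in edgeR 4.0.16 (R 4.3.3; TMM, filterByExpr, quasi-likelihood test) and p-values adjusted by Benjamini-Hochberg over all tested genes; called means adjusted p under 0.1 and at least 1.5-fold. Interaction and age-change tests (36 libraries) had no fold minimum. CPM used TMM-scaled library sizes, log2 CPM a prior count of 2, and fold changes carry standard errors. Ratios of summed counts have 95% exact conditional intervals that cover counting error only; the floor is 3 counts per library. DESeq2 1.42.0, limma-voom 3.58.1, RLE scaling, no filter, a replicate block, the sex label and leaving out each library were tried. The fits were tested on simulated data. The members and gene lists were chosen with earlier results of these data known. Text names all 10 members, the called genes of each list (at most 5 per list and comparison by fold change, of which examples are given) and the 3 genes most like each member; 1 gene that these rules would name is not reported here. The labels number 3 replicates per group without saying whether F/M and Cb libraries came from the same mice, and p-values measure the spread between these libraries. No 2 replicates of a group agreed within sampling noise (chi-square per degree of freedom at least 1.43).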

Additional observations from a re-analysis of the deposited data

Results flagged for a closer look

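These 12 effects differed between groups in a test of the difference itself. *Axl* at 2 months had an effect in Cb minus F/M of -0.39 (edgeR adjusted p = 0.060). From 2 to 3 months the *Tpp1*-/- effect grew in F/M by 4.41 for *Itgax* and 3.04 for *Clec7a*, and in Cb by 1.41 for *Trem2*, 1.70 for *Tyrobp* and 3.20 for *Clec7a*. From 1 to 3 months it grew in F/M by 3.62 for *Itgax* and 3.35 for *Clec7a*, and in Cb by 1.64 for *Trem2*, 1.25 for *Tyrobp*, 4.25 for *Itgax* and 3.22 for *Clec7a*. All are log2 differences. *Itgax* was kept by the low-count filter mainly through *Tpp1*-/- libraries and *Clec7a* in part, so their changes are a description. The search for single samples far from their group covers groups of 4 to 10 and was not run on these groups of 3.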

How the results depend on the processing

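At 3 months the members called numbered 3 to 5 in F/M and 5 to 6 in Cb across the alternatives. With no low-count filter 1 member was called in Cb at 2 months, 1 passed the region-by-genotype test at 3 months and 5 passed from 2 to 3 months in Cb. With no fold minimum 1 was called in F/M at 2 months. The region-by-genotype count at 2 months was 0 with the replicate block and 0 at adjusted p under 0.05. With the general microglia list as reference, 1 member in F/M and 2 in Cb lay above all controls at 2 months. Without Cb *Tpp1*-/- replicate 1, added after seeing the data, 4 homeostatic genes were called in Cb and 9 general microglia genes in F/M.

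Leaving out 1 library at a time gave ranges of 0 to 1 members called in Cb at 1 month, 0 to 1 in F/M at 2 months, 0 to 1 for region by genotype at 2 months, 1 to 3 in F/M and 2 to 4 in Cb from 2 to 3 months and 1 to 2 in F/M from 1 to 3 months. Relative to the homeostatic list the members above all controls numbered 2 to 4 in F/M at 2 months and, in Cb, 1 to 3 at 1 month and 5 to 9 at 2 months.

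Direction turned for members that were not called. At 1 month in F/M, *Axl* was -0.00015 with the replicate block and *Igf1* 0.00078 with no filter. At 2 months *Csf1* in F/M was -0.0018 with no filter and *Igf1* in Cb -0.00997 in limma-voom. Leaving out 1 library gave, at 1 month in F/M, -0.10 to 0.58 for *Clec7a*, -0.049 to 0.029 for *Axl*, -0.17 to 0.23 for *Spp1* and -0.092 to 0.056 for *Igf1*. In Cb at 1 month it gave -0.049 to 0.73 for *Itgax*, -0.082 to 0.10 for *Axl*, -0.089 to 0.26 for *Cd9* and -0.20 to 0.084 for *Igf1*. At 2 months it gave -0.023 to 0.048 for *Csf1* in F/M, and -0.049 to 0.019 for *Csf1* and -0.18 to 0.20 for *Igf1* in Cb. The cause was not tested.

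Samples of the same number deviated together with correlations from -0.09 to 0.23, and in 0 of 6 strata of age and region did every pair exceed 0.1. Such correlations in groups of 3 cannot exclude a pairing. Control and *Tpp1*-/- samples of the same number shared a sex label, and the main fits treated them as unpaired. Between F/M and Cb every pair exceeded 0.1 in 1 of 6 strata of age and genotype, the 1-month controls, where the block kept 3 members called between the regions. At 3 months the replicate block gave 6 called members in Cb and 4 in F/M. The lower *Tyrobp* of Cb controls at 3 months was not called with it (-0.42, adjusted p = 0.25, a contrast set at replicate 1). Nor was the *Axl* difference at 2 months (-0.38, adjusted p = 0.105), while *Cd9* in Cb at 3 months was (0.69, adjusted p = 0.070). Depth limits *Itgax*, *Clec7a* and *Cst7* in controls, at 0 to 15 counts per library.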
